A study of Mus musculus with 13 samples.

Results

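The genes described here are 4 matrix metalloproteinases (Mmp2, Mmp3, Mmp9 and Mmp14) and the 4 tissue inhibitors of metalloproteinases (Timp1, Timp2, Timp3 and Timp4). They were taken by name as 8 rows of a table of 21868 genes measured by RNA-seq in mouse gastrocnemius, the large calf muscle. Male C57BL/6N mice, bought at 7 weeks of age, were made obese on a diet with 60 kcal% fat for 15 to 17 weeks, returned to standard chow, and treated for 3 weeks. The 5 vehicle mice received PBS injections, and their label adds a placebo whose form was not given. The 5 semaglutide mice received semaglutide, an agonist of the GLP-1 receptor, at 30 nM/kg per day by intraperitoneal injection, and their label also adds a placebo. The 3 semaglutide + ketone ester mice received the same injections and drank water with 0.114 g/mL of a ketone ester, an octanoyl diester of (R)-1,3-butanediol. All 3 groups shared the earlier obesity and the change of diet, and no lean or untreated mice were analysed here.

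Matrix metalloproteinases are zinc-dependent enzymes that cut collagens and other proteins of the extracellular matrix. Most are secreted as inactive precursors and are inhibited by the TIMPs, which block the active site. Mmp2 and Mmp9 encode the gelatinases, which cut denatured collagen and the basement membrane collagen around each muscle fibre. Mmp3 encodes stromelysin-1, which cuts several matrix proteins and can activate other precursors, and Mmp14 encodes a membrane-bound enzyme that activates the Mmp2 precursor at the cell surface. Timp2 takes part in that activation, holding the precursor next to the Mmp14 product, although it inhibits both enzymes at higher amounts. In muscle, these genes are known for matrix remodelling after injury, exercise and disuse.

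The 8 genes lie on 8 chromosomes of the mouse build GRCm38, so no pair of them shares a locus. Mmp2 is at chr8:92827291-92853420 on the plus strand, Mmp3 at chr9:7445822-7455975 (plus), Mmp9 at chr2:164940780-164955850 (plus) and Mmp14 at chr14:54431612-54445364 (plus). Timp1 is at chrX:20870166-20874735 (plus), Timp2 at chr11:118301069-118355740 (minus), Timp3 at chr10:86300372-86349506 (plus) and Timp4 at chr6:115241892-115252205 (minus). Timp1, Timp3 and Timp4 lie within the synapsin genes Syn1, Syn3 and Syn2, which run on the opposite strand. Timp3 shares 1733 exonic bases with Syn3 and Timp4 shares 90 with Syn2, whereas Timp1 shares none with Syn1. Whether the counting used strand was not given in the sources used here, so reads in those shared stretches cannot be assigned with certainty. Mean normalized counts of Syn3 (9.44) and Syn2 (21.1) were low beside those of Timp3 and Timp4. Timp2 overlaps Cep295nl on the same strand without sharing an exonic base.

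The RefSeq promoter table for GRCm38.p6 held 6 of the 8 genes, and Mmp2 and Mmp9 were missing. The 100 bases before the RefSeq start are shown for the member with the fewest reads among the metalloproteinases (Mmp3), for the membrane-bound enzyme (Mmp14) and for the inhibitor whose 3 semaglutide + ketone ester mice all lay below the vehicle mice (Timp4). Each is printed 5′ to 3′ on the gene's own strand, with matches to an AP-1 motif (TGANTCA, which reads alike on both strands) or a GC box (GGGCGG, searched on both strands) in capitals.
Mmp3, chr9:7445722-7445821, plus strand: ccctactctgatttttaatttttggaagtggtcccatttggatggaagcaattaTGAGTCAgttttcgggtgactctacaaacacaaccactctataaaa
Mmp14, chr14:54431498-54431597, plus strand: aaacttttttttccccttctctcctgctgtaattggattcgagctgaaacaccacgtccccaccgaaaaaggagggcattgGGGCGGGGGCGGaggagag
Timp4, chr6:115252206-115252305, minus strand: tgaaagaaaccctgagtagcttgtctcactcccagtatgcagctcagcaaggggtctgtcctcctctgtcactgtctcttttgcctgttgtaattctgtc
In the window from 250 bases before to 50 after the start, the AP-1 letters occurred in Mmp3 alone among the 6 genes, beginning at base -46, where -1 is the base just before the start. These letters were present in 7.8% of the 32851 promoters in the table. A GC box was found in Mmp14 (at -19 and -13), Timp1 (at -8), Timp2 (at -37) and Timp3 (at -15 and 13), and in 35.7% of all promoters. Neither motif was found in the Timp4 window. These matches describe the letters only.

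Expression is given as normalized counts, that is, reads per gene divided by a size factor for each library. Each library held 15319471 to 23498162 reads on genes. The markers of muscle fibres (8 of 8, among them Ckm and Acta1) were present in every mouse. Semaglutide mouse 13 stood apart from its group: on the first principal component, which held 38.1% of the variance, it scored -9.12, whereas the other 4 semaglutide mice scored 31.83 to 52.51, vehicle mice -24.49 to -12.85 and semaglutide + ketone ester mice -25.64 to -15.82. Differences were tested with limma on log2(normalized count + 1) over the 12303 genes with a mean of at least 10, with Benjamini-Hochberg adjustment over all of them and a threshold of 0.05. Of the 8 members, 6 passed this filter, 3 metalloproteinases and 3 inhibitors; Mmp3 (mean 9.42) and Timp1 (mean 3.84) did not. Each library came from a mouse with a number of its own.

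The inhibitors were the more abundant side of the family. Per kilobase of exon, the vehicle mean was 507 normalized counts for Timp2, 454 for Timp3, 181.5 for Mmp2, 107 for Timp4, 28.4 for Mmp14, 6.03 for Mmp3, 5.17 for Mmp9 and 5.02 for Timp1. In this order the ranges over mice overlapped between Timp2 and Timp3, between Mmp2 and Timp4, and among Mmp3, Mmp9 and Timp1. Such ranges leave out that the genes were read in the same mice. In semaglutide mice, Timp3 (404.5 per kilobase) came before Timp2 (296), followed by Mmp2 (96.0) and Timp4 (90.3), again with overlapping ranges in both pairs, and the range of Timp4 also reached that of Mmp14 (35.4). Within every semaglutide mouse, however, Timp3 exceeded Timp2 and Timp4 exceeded Mmp14. In semaglutide + ketone ester mice the order began as in vehicle mice, with Timp2 at 483, Timp3 at 449 and Mmp2 at 173, but Timp4 (45.6) lay clear of Mmp2. By normalized count, before division by length, Timp3 exceeded 95.7% of the tested genes, Timp2 89.4%, Timp4 68.4%, Mmp2 67.6%, Mmp14 41.8% and Mmp9 2.6%.

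**Figure D1:**
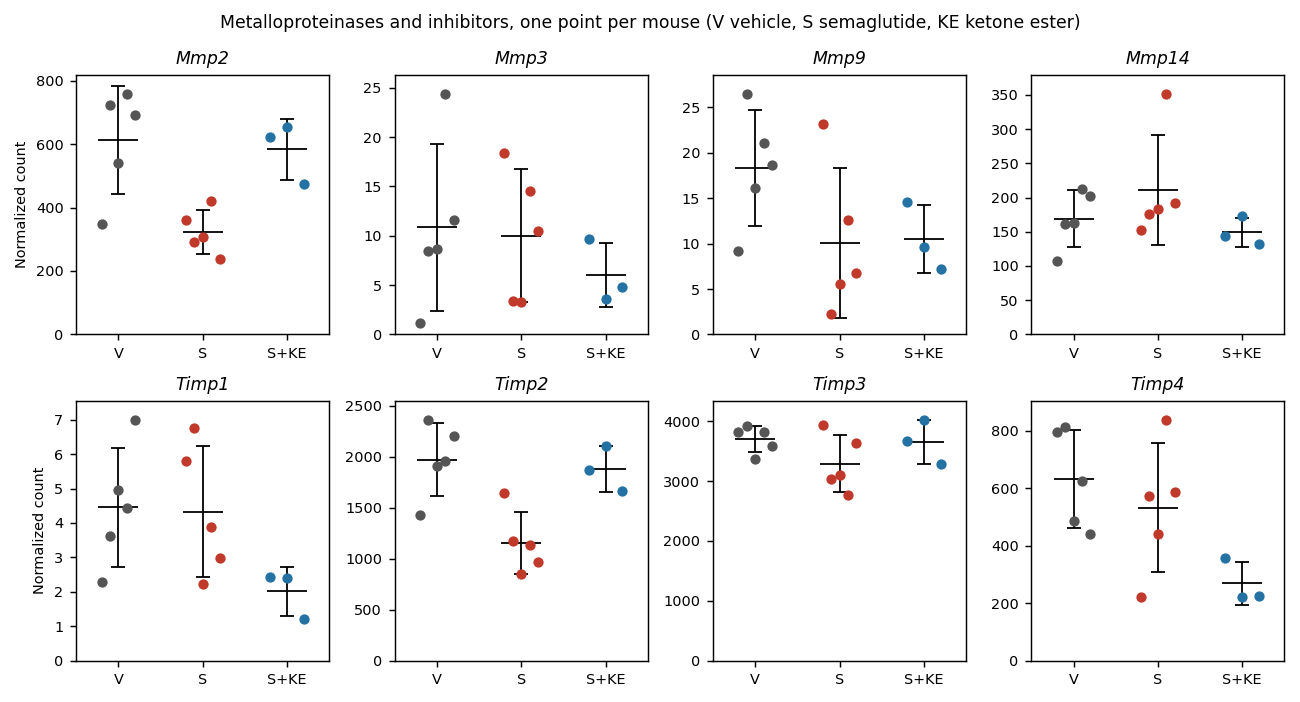
Normalized counts of the 8 genes, one panel each with its own linear axis from 0; each point is a mouse, the long bar is the group mean and the whiskers are ± SD (V vehicle, n = 5; S semaglutide, n = 5; S+KE semaglutide + ketone ester, n = 3). Mmp2 and Timp2 are lowest in the semaglutide group, where means were 324 and 1154, and Timp4 is lowest in the semaglutide + ketone ester group, with a mean of 269.

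Mmp2 and Timp2 fell with semaglutide, and both were higher when the ketone ester was added. Mmp2, the gelatinase made mainly by connective tissue cells, read 346.7, 722.3, 540.7, 758.4 and 691.6 in vehicle mice 1 to 5. It read 360.7, 291.9, 307.7, 419.5 and 238.7 in semaglutide mice 13 to 17, and 621.9, 652.3 and 474.7 in semaglutide + ketone ester mice 19, 21 and 22. Vehicle mouse 1 lay among the semaglutide mice, while the other 4 vehicle mice and all 3 semaglutide + ketone ester mice lay above every semaglutide mouse. The group means were 612 ± 170 (SD, n = 5), 324 ± 69.0 (n = 5) and 583 ± 95 (n = 3).

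The log2 fold change of Mmp2 was -0.89 (SE 0.22, 95% interval -1.36 to -0.42) for semaglutide against vehicle, a ratio of 0.54, with a limma adjusted p of 0.0125. It was 0.86 (SE 0.25, 0.31 to 1.41) for semaglutide + ketone ester against semaglutide, with a limma adjusted p of 0.0337. Both comparisons contain the same 5 semaglutide mice. Between semaglutide + ketone ester and vehicle, the log2 fold change of Mmp2 was -0.03 (interval -0.58 to 0.52, limma adjusted p = 0.987).

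Timp2, the inhibitor that also pairs with the Mmp14 product, read 1428, 2361, 1915, 1959 and 2205 in vehicle mice 1 to 5. It read 1650, 1172, 852, 1132 and 966 in semaglutide mice 13 to 17, and 1876, 2108 and 1662 in semaglutide + ketone ester mice 19, 21 and 22. Again vehicle mouse 1 was low and semaglutide mouse 13 was high, and these 2 mice alone made the vehicle and semaglutide groups overlap. The semaglutide + ketone ester mice did not overlap the semaglutide mice, although mouse 22 exceeded mouse 13 only narrowly. The means were 1974 ± 355, 1154 ± 306 and 1882 ± 223 (SD, n = 5, 5 and 3).

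The log2 fold change of Timp2 was -0.79 (SE 0.18, interval -1.18 to -0.40, limma adjusted p = 0.00834) for semaglutide against vehicle. With the ketone ester against semaglutide alone it was 0.74 (SE 0.21, 0.29 to 1.18, limma adjusted p = 0.0282). The remaining difference from vehicle was -0.06 (interval -0.50 to 0.39, limma adjusted p = 0.967).

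The declines with semaglutide kept their call when any single mouse was left out. Without semaglutide mouse 13, the log2 fold change from vehicle was -0.93 for Mmp2 (limma adjusted p = 0.00976) and -0.93 for Timp2 (limma adjusted p = 0.000829), and without vehicle mouse 1 it was -1.08 and -0.90. The higher values with the ketone ester were less secure. Neither gene passed without semaglutide mouse 15 or 17, or without any of semaglutide + ketone ester mouse 19, 21 or 22, with limma adjusted p values of 0.0573 to 0.124 and log2 fold changes of 0.64 to 1.0. Without semaglutide mouse 14 only Timp2 passed. When libraries were scaled to equal totals, the log2 fold changes were 0.62 for Mmp2 (limma adjusted p = 0.0993) and 0.50 for Timp2 (0.0896), against a median of -0.24 over all genes.

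Among all tested genes, 25.1% passed in either direction for semaglutide against vehicle, 11.9% higher and 13.2% lower (1459 and 1625 genes; 3262 and 929 after scaling to equal totals). The 2 members that passed, of 6 tested, were both lower. For semaglutide + ketone ester against semaglutide, 18.4% of genes passed, 9.09% higher and 9.3% lower (1118 and 1144 genes; 611 and 3586 after scaling to equal totals), and the 2 members that passed were both higher. A share of 2 in 6 genes is near these background shares, so the counts say nothing particular about the family. Groups did not overlap for 2 of 6 members (Mmp2 and Timp2) in semaglutide + ketone ester against semaglutide, where 20.1% of all genes were without overlap, and for 0 of 6 in semaglutide against vehicle, where the share was 14.7%. The study called genes altered by a one-way analysis of variance and a fold threshold. With that test at 0.05 and a fold of at least 1.5, taken here between the highest and lowest group mean, Mmp2 (1.89-fold) and Timp2 (1.71-fold) qualified, as did 16.1% of all genes. Timp4 (2.35-fold) and Mmp9 (1.82-fold) met the fold but not the test, and Mmp14 (1.41-fold) and Timp3 (1.12-fold) met neither.

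**Figure D2:**
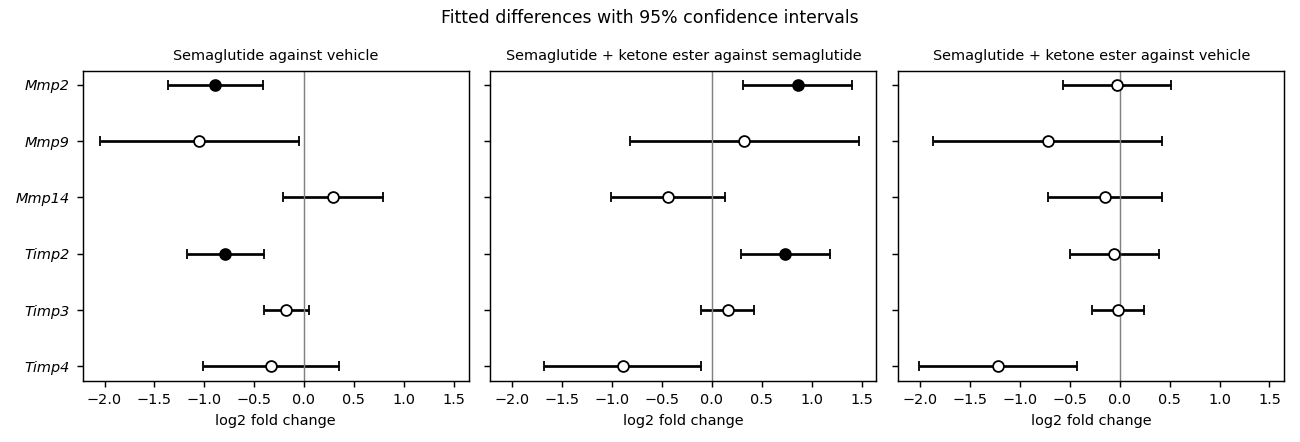
Log2 fold changes (x axis) of the 6 tested members in the 3 comparisons, one panel each, with 95% confidence intervals from limma; filled points passed the adjusted threshold of 0.05. Mmp2 and Timp2 are filled in the first 2 panels, at -0.89 and -0.79 and then at 0.86 and 0.74, and no point is filled in the third, where Timp4 sits at -1.22.

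Mmp9, the gelatinase typical of neutrophils and macrophages, was measured by 2 to 24 reads per mouse. Its normalized counts were 9.15, 26.5, 16.1, 21.1 and 18.6 in vehicle mice 1 to 5, and 23.2, 2.25, 5.55, 12.6 and 6.71 in semaglutide mice 13 to 17. The semaglutide + ketone ester mice 19, 21 and 22 had 14.6, 9.66 and 7.21. Semaglutide mouse 13 was within the upper vehicle range, while mice 14, 15 and 17 were below every vehicle mouse. The means were 18.3 ± 6.39, 10.1 ± 8.25 and 10.5 ± 3.75 (SD, n = 5, 5 and 3).

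For semaglutide against vehicle, the log2 fold change of Mmp9 was -1.05 (SE 0.46, limma adjusted p = 0.111), which did not pass. Without mouse 13 it was -1.41 and passed (limma adjusted p = 0.0154). The other comparisons gave 0.33 (limma adjusted p = 0.704) for semaglutide + ketone ester against semaglutide and -0.73 (0.734) for semaglutide + ketone ester against vehicle. The markers of neutrophils, which store its product, were scarcely detected. None of 6 neutrophil markers reached a mean of 10 over the 13 mice. Ly6g was at 0 in all 13 mice, and Camp and Ngp were at 0 in 12. The other 3, S100a8, S100a9 and Retnlg, were each at 0 in 2 mice. Their means were 0.95, 2.84 and 1.44 in vehicle mice and 4.24, 12.0 and 3.63 in semaglutide mice. In semaglutide + ketone ester mice they were 2.02, 2.01 and 2.01. The summed neutrophil markers were 1.1 to 9.9 in vehicle mice, 8.7 to 35.0 in semaglutide mice and 3.6 to 10.9 in semaglutide + ketone ester mice. Their part in the level of Mmp9 was not tested.

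Mmp3, stromelysin-1, was lower still, at 1 to 22 reads per mouse. Normalized counts were 1.14, 8.43, 8.66, 24.4 and 11.6 in vehicle mice 1 to 5, 18.4, 3.38, 3.33, 14.6 and 10.4 in semaglutide mice 13 to 17, and 9.72, 3.62 and 4.81 in the 3 semaglutide + ketone ester mice. The groups overlapped throughout, and single mice within the vehicle group spanned the whole range. In the fit without a filter on low genes, the log2 fold change was 0.01 for semaglutide against vehicle, -0.48 for semaglutide + ketone ester against semaglutide and -0.46 against vehicle, with limma adjusted p values of 0.733 to 1.0. No difference was detectable at this depth.

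Mmp14, which encodes the membrane-bound activator of the Mmp2 precursor, did not pass in any comparison. It read 107.6, 161.3, 162.1, 211.8 and 202.6 in vehicle mice 1 to 5, 152.8, 175.8, 183.3, 351.5 and 191.7 in semaglutide mice 13 to 17, and 143.3, 172.7 and 132.2 in semaglutide + ketone ester mice 19, 21 and 22. Semaglutide mouse 16 was far above the rest, and the other 12 mice overlapped across groups. The means were 169 ± 41.4, 211 ± 79.9 and 149 ± 21.0 (SD, n = 5, 5 and 3).

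The log2 fold change of Mmp14 was 0.29 (SE 0.23, interval -0.21 to 0.79, limma adjusted p = 0.38) for semaglutide against vehicle, and 0.09 without mouse 16. Adding the ketone ester gave -0.44 (interval -1.01 to 0.14, limma adjusted p = 0.262), and -0.24 without mouse 16. Against vehicle, the combined treatment gave -0.15 (limma adjusted p = 0.917). The difference between Mmp14 and Mmp2 in their response was not tested. The same mouse 16 had the highest summed level of 8 macrophage markers, 2526, against 788 to 1218 in the other semaglutide mice, 663 to 2032 in vehicle mice and 975 to 1863 in semaglutide + ketone ester mice. It also had the highest summed level of 6 adipocyte markers, 19452, against 1763 to 3785 in the other semaglutide mice, 3344 to 7020 in vehicle mice and 3753 to 4596 in semaglutide + ketone ester mice. By limma, 0 of the macrophage and adipocyte markers passed in any comparison, and 0 macrophage markers and 1 adipocyte marker had an unadjusted p under 0.05. Their part in the level of Mmp14 was not tested.

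Timp3, the inhibitor that binds to the matrix itself, was abundant and did not pass in any comparison. It read 3813, 3913, 3366, 3821 and 3590 in vehicle mice 1 to 5, 3929, 3037, 3100, 2762 and 3641 in semaglutide mice 13 to 17, and 3668, 4019 and 3282 in the semaglutide + ketone ester mice. Mice 14, 15 and 16 lay below every vehicle mouse, and mouse 13 lay above them all. The means were 3700.0 ± 222, 3294 ± 477 and 3656 ± 369 (SD, n = 5, 5 and 3).

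The log2 fold change of Timp3 was -0.18 (SE 0.11, interval -0.41 to 0.05, limma adjusted p = 0.235) for semaglutide against vehicle. It was 0.16 (limma adjusted p = 0.385) with the ketone ester against semaglutide alone, a sign that turned to -0.08 after scaling to equal totals, and -0.02 (0.98) against vehicle. The interval for semaglutide against vehicle reached no lower than -0.41 on the log2 scale. Without mouse 13, the log2 fold change in that comparison was -0.24 (limma adjusted p = 0.0665), which did not pass. The difference between Timp3 and Timp2 in their response was not tested.

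Timp4, the inhibitor best known from heart, muscle and fat, had its lowest group mean in the mice given both treatments. Vehicle mice 1 to 5 had 794.1, 811.4, 485.0, 626.5 and 442.4, semaglutide mice 13 to 17 had 222.4, 571.4, 442.1, 837.1 and 588.5, and semaglutide + ketone ester mice 19, 21 and 22 had 357.1, 223.5 and 225.9. All 3 semaglutide + ketone ester mice lay below all 5 vehicle mice, and below 4 of 5 semaglutide mice, the exception being mouse 13. The means were 632 ± 170, 532 ± 225 and 269 ± 76.4 (SD, n = 5, 5 and 3).

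For semaglutide + ketone ester against vehicle, the log2 fold change of Timp4 was -1.22 (SE 0.36, interval -2.01 to -0.43), a ratio of 0.43, which did not pass the adjustment (limma adjusted p = 0.241). In that comparison 0 of 6 tested members passed with limma, 1 of 6 (Timp4) had an unadjusted p under 0.05, edgeR called 0 and DESeq2 called 1 (Timp4, log2 fold change -1.23, adjusted p = 0.0197). Over all alternatives the adjusted p of Timp4 ran from 0.0197 to 0.587. Among all genes 0.236% passed here, 0.0732% higher and 0.163% lower. Timp4 was the only member of 6 whose groups did not overlap in this comparison, where 11.3% of all genes did not.

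Against semaglutide alone, the log2 fold change of Timp4 was -0.89 (SE 0.36, interval -1.68 to -0.11, limma adjusted p = 0.102), and without mouse 13 it was -1.18 and passed (limma adjusted p = 0.00718). It also passed after scaling to equal totals, at -1.13 (limma adjusted p = 0.0429), with sample weights, at -1.02 (limma adjusted p = 0.0146), and with DESeq2, at -0.99 (adjusted p = 0.0156). Semaglutide against vehicle gave -0.33 (limma adjusted p = 0.475), and -0.05 without mouse 13.

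Timp1, the inducible inhibitor of inflamed and injured tissue, was at the edge of detection with 1 to 6 reads per mouse. The normalized counts were 2.29, 3.61, 4.95, 4.44 and 6.99 in vehicle mice 1 to 5, 5.80, 6.76, 2.22, 3.88 and 2.98 in semaglutide mice 13 to 17, and 2.43, 2.42 and 1.20 in semaglutide + ketone ester mice 19, 21 and 22. The 3 semaglutide + ketone ester mice together had 5 reads, for which an exact Poisson interval, covering counting error only, is 1.6 to 11.7. The groups overlapped, and in the fit without a filter the adjusted p from limma was 0.158 or more in every comparison.

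Ratios between members within a mouse set their unequal changes side by side; they were chosen after the values were seen and carry no test. The ratio of Mmp14 to Mmp2 per kilobase was 0.126 to 0.175 in vehicle mice, 0.240 to 0.474 in semaglutide mice and 0.130 to 0.158 in semaglutide + ketone ester mice, so that all 5 semaglutide mice, mouse 13 included, lay above the other 8. The ratio of Mmp2 to Timp2 was much the same in each group, with means of 0.354 ± 0.061, 0.334 ± 0.082 and 0.357 ± 0.027 (SD, n = 5, 5 and 3). Mmp2 made up 82.2% ± 1.58 of the summed per-kilobase level of the 4 metalloproteinases in vehicle mice, 69.0% ± 4.73 in semaglutide mice and 84.6% ± 0.60 in semaglutide + ketone ester mice. Mmp14 took most of the remainder, with 13.1%, 25.2% and 12.3%.

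Among the inhibitors, Timp2 and Timp3 together made up most of the summed level in each group. Timp2 was 47.0% ± 5.54 of the summed inhibitor level in vehicle mice, 36.8% ± 5.41 in semaglutide mice and 49.3% ± 0.98 in semaglutide + ketone ester mice, while Timp3 was 42.5% ± 3.50, 50.9% ± 5.37 and 45.8% ± 0.56. Timp4 made up 10.0%, 11.7% and 4.67%. The ratio of Timp4 to Timp2 ranged from 0.133 to 0.368 in vehicle mice and from 0.0891 to 0.489 in semaglutide mice, where mouse 13 was the lowest, and from 0.0701 to 0.126 in semaglutide + ketone ester mice. The summed metalloproteinases of this set, without others such as Mmp15, over its summed inhibitors gave 0.204 ± 0.049, 0.177 ± 0.045 and 0.208 ± 0.013, which overlapped between groups. These are ratios of transcripts and hold no measure of enzyme activity.

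**Figure D3:**
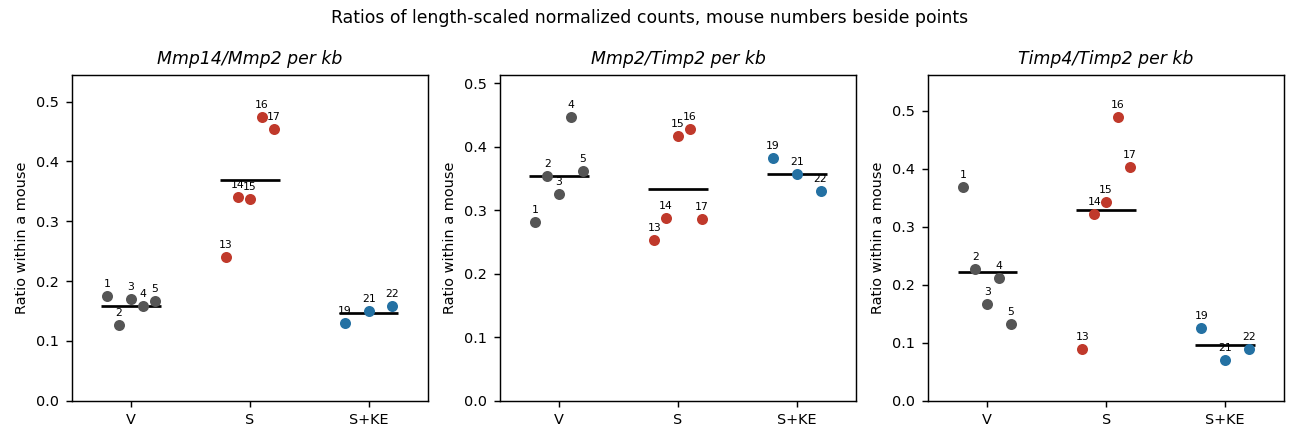
Ratios of normalized counts per kilobase of exon within each mouse, one panel per ratio with its own linear axis from 0; points carry mouse numbers and bars are group means (V, n = 5; S, n = 5; S+KE, n = 3). Mmp14/Mmp2 is 0.240 or more in every semaglutide mouse and at most 0.175 elsewhere, Mmp2/Timp2 overlaps throughout, and Timp4/Timp2 is at most 0.126 with the ketone ester.

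Most fibroblast markers changed in the same directions as Mmp2 and Timp2, as did some tendon, mural and muscle fibre markers. Over all tested genes, 13.2% were lower with semaglutide and 9.09% higher with the ketone ester. In bulk muscle, fewer cells of a type and less RNA per cell cannot be told apart. Of 8 fibroblast markers, 7 were lower and 0 higher in semaglutide against vehicle (median log2 fold change -1.37, against -0.00 over all genes), 5 were higher and 0 lower when the ketone ester was added (median 1.45), and 0 passed between the combined treatment and vehicle, with 0 also at an unadjusted p under 0.05. Their summed level was 13530 to 30922 in vehicle mice, 10726 to 14996 in semaglutide mice and 15520 to 24637 in semaglutide + ketone ester mice. Vehicle mouse 1 had the lowest sum of its group, as it did for Mmp2, Timp2, Mmp14, Mmp3, Mmp9 and Timp1, and semaglutide mouse 13 had the highest sum of its group. No fibroblast marker was at 0 in any mouse.

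Of 7 tendon cell markers, 5 were lower with semaglutide (median -2.22), and with the ketone ester 2 were higher and 1, Scx, was lower. Their sums were 1288 to 7308 in vehicle mice, 756 to 2822 in semaglutide mice and 3464 to 4333 in semaglutide + ketone ester mice. Of 6 mural cell markers, 4 were lower with semaglutide (sums 6837 to 9047 in vehicle, 4172 to 5973 in semaglutide and 6820 to 7695 in semaglutide + ketone ester mice) and 1 was higher with the ketone ester. Endothelial markers (6) gave 0 calls with semaglutide, with 2 at an unadjusted p under 0.05, and 2 higher with the ketone ester, and their sums stayed between 3734 and 4924. Muscle fibre markers (8) gave 2 lower with semaglutide and 4 higher with the ketone ester. Satellite cell markers (4 tested of 5) gave 1 higher with semaglutide, Cdh15, and 1 lower with the ketone ester, and Schwann cell markers (5) gave 0, with 0 at an unadjusted p under 0.05. The fibroblast list shares Col1a1, Col1a2 and Dcn with the list of metalloproteinase substrates. The part of any of these cell types in the levels of Mmp2 and Timp2 was not tested.

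**Figure D4:**
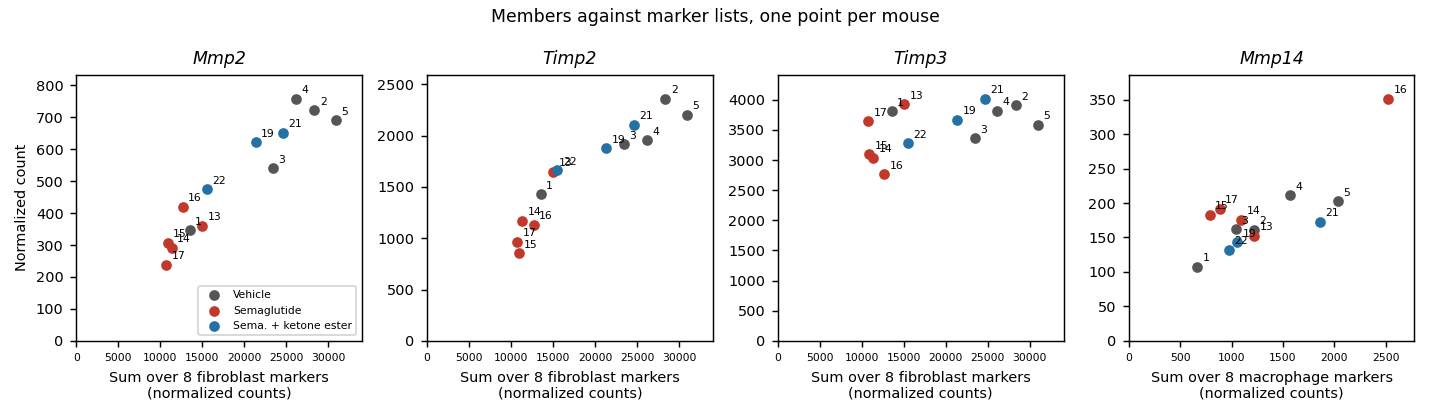
Normalized counts of Mmp2, Timp2 and Timp3 against the summed normalized counts of 8 fibroblast markers, and of Mmp14 against those of 8 macrophage markers; each point is a mouse with its number, coloured by group, and axes are linear from 0. Vehicle mouse 1, with a fibroblast sum of 13530, sits among semaglutide mice for Mmp2, whose values run from 239 to 420. Timp3 is 2762 or more at every fibroblast sum, and mouse 16 is highest for both Mmp14 and the macrophage sum.

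The genes with the levels most like those of Mmp2 and Timp2 were found over the 13 mice. For Mmp2, the highest Pearson correlations of log2(normalized count + 1) were with Uba6 (0.953), which encodes a ubiquitin-activating enzyme, Fn1 (0.948), which encodes fibronectin, and Scara3 (0.941). For Timp2 they were with Col6a1 (0.976), a chain of type VI collagen, Serpinf1 (0.973) and Fstl1 (0.971), which encode secreted glycoproteins. With group means removed, these correlations were 0.861 to 0.872 for Mmp2 and 0.916 to 0.946 for Timp2. The 13 points share the group differences, the libraries and their size factors, and these values are a description. Added after the values were seen, the closest gene to Mmp14 was Gpnmb (0.948), which is expressed by lipid-laden macrophages, and the closest to Timp4 was Adgrg1 (0.935), which encodes an adhesion receptor.

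Transcripts of many genes that encode metalloproteinase substrates fell with semaglutide. All 15 genes of a substrate list were tested. Of these, 11 were lower and 0 higher in semaglutide against vehicle (median -1.18), and 8 were higher and 0 lower with the ketone ester (median 0.52). In the combined treatment 3 were lower than in vehicle (median -0.16). The shares of all tested genes that passed in those directions were 13.2% lower, 9.09% higher and 0.163% lower. Fibrillar collagens fell most among the 4 named by their adjusted p. Col3a1 changed by -3.14 and then by 2.64 on the log2 scale (limma adjusted p = 0.000265 and 0.00283), and Col1a1 by -3.02 and 3.03 (0.000742 and 0.00283). Basement membrane collagen, the substrate of the gelatinases, fell less: Col4a1 by 1.33 and Col4a2 by 1.18 on the log2 scale (limma adjusted p = 4.57e-05 for both).

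Col4a1 and Col4a2 were higher with the ketone ester than with semaglutide alone, by 0.52 and 0.36 on the log2 scale (limma adjusted p = 0.0131 and 0.0353) and remained below vehicle, at -0.81 and -0.82 (0.0285 and 0.0185). The third gene below vehicle, named after its value was seen, was Eln, which encodes elastin, at -0.87 (limma adjusted p = 0.0479). The fitted differences of Mmp2 and Timp2 from vehicle in the same mice were -0.03 and -0.06, and whether they differed from those of the collagens was not tested. Over the alternatives, 9 to 12 of the substrate genes were lower with semaglutide and 4 to 9 higher with the ketone ester, and 0 to 4 were below vehicle.

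Other metalloproteinases were mostly too low to test. Of 19 listed, 18 were in the table and 7 passed the filter. Named after its value was seen, Mmp15 had the highest mean of these over all mice, 488, against 494 for Mmp2. It did not pass in any comparison. Of the 7, 2 were higher and 0 lower in semaglutide against vehicle (median -0.23). This share is near the 25.1% of all tested genes that passed, so it says nothing particular about the list. None passed in the other comparisons. There, 1 and 0 had an unadjusted p under 0.05 for the ketone ester against semaglutide and against vehicle. Mmp11, stromelysin-3, rose from a mean of 50.5 in vehicle to 128 in semaglutide mice and was 53.1 with the ketone ester. Its log2 fold change with semaglutide was 1.23 (SE 0.33, limma adjusted p = 0.0176). Mmp28, or epilysin, had means of 56.9, 87.6 and 67.3, a log2 fold change of 0.60 (SE 0.16, limma adjusted p = 0.0186). These 2 metalloproteinases rose in the comparison in which Mmp2 fell, and over the alternatives 2 of the list were higher and 0 to 3 lower. With the ketone ester against semaglutide, their log2 fold changes were -1.10 and -0.36 (limma adjusted p = 0.0591 and 0.196).

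The related ADAM and ADAMTS proteases contributed 21 tested genes of 30. With semaglutide 7 were lower and 1 higher (median -0.16), beside 13.2% and 11.9% of all tested genes. With the ketone ester 1 was higher and 2 lower, beside 9.09% and 9.3% of all tested genes. Between the combined treatment and vehicle 0 passed, with 5 at an unadjusted p under 0.05. Over the alternatives 2 to 8 were lower with semaglutide. Adamts5, an aggrecanase, followed the pattern of Mmp2, at -1.02 and then 0.94 on the log2 scale (limma adjusted p = 0.00224 and 0.0099), with means of 413, 201 and 381. Adamts2, which removes the amino-terminal propeptide of procollagen, fell by 0.76 with semaglutide (limma adjusted p = 0.00385). Adam17, the TNF-alpha converting enzyme, fell by 0.46 (0.0155), and Adamts12 by 0.86 (0.0221). Named after their values were seen, Adamts20 was the gene that was higher with semaglutide (1.16, limma adjusted p = 0.0225), and Adamts8 and Adamts9 were the 2 that were lower with the ketone ester (-1.52 and -1.16; 0.0364 and 0.034).

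Of 15 listed genes for activation, inhibition and clearance of metalloproteinases, 13 were tested. With semaglutide 1 was higher and 2 were lower (median -0.22), and with the ketone ester 2 were higher and 1 lower (median 0.13). A share of 3 in 13 is near the 25.1% and 18.4% of all tested genes that passed. These counts thus say nothing particular about the list. Furin, the proprotein convertase that activates the Mmp14 precursor, rose by 0.42 with semaglutide and fell by 0.56 with the ketone ester (limma adjusted p = 0.0119 and 0.00796). Pcsk6, another convertase, went the other way, at -0.90 and 0.91 (0.00716 and 0.0178), as did Serpine2, an inhibitor of serine proteases, at -0.85 and 0.79 (0.00377 and 0.0155). Between the combined treatment and vehicle 0 passed, also at an unadjusted p under 0.05.

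Of 12 tested genes of 16 that encode signals and factors known to act on metalloproteinase genes, 3 were higher and 0 lower with semaglutide (median 0.06), and 0 were higher and 1 lower with the ketone ester (median -0.39). Over the alternatives 0 to 4 were higher with semaglutide and 0 to 4 lower with the ketone ester. Of all tested genes, 25.1% and 18.4% passed in these comparisons, so the counts say nothing particular about this list. All 3 that were higher with semaglutide in the main fit were receptors of the TGF-beta family: Tgfbr2 (0.52, limma adjusted p = 0.0204), Tgfbr1 (0.49; 0.0255) and Tgfbr3 (0.53; 0.0316). Tgfbr1 was the gene lower with the ketone ester, at -0.57 (limma adjusted p = 0.0327). Of 6 tested AP-1 genes (Fos, Fosb, Fosl2, Jun, Junb and Jund), 0 passed in any comparison by limma, and 1, 2 and 2 had an unadjusted p under 0.05 in the 3 comparisons in turn. By the analysis of variance and fold, Jun was altered (2.38-fold) and the others were not. Il1b, Tnf and Il6, cytokines that induce Mmp3 and Mmp9, were below the filter with means of 1.51, 1.23 and 0.54. Between the combined treatment and vehicle 0 of the 12 passed, with 3 at an unadjusted p under 0.05.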

How the data were processed

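RNA of gastrocnemius from 13 mice was sequenced with a stranded mRNA kit (paired reads of 59 bases) and aligned to mm10 with DRAGEN; DRAGEN and DESeq2 are named in the submitters' processing notes. The counter, its annotation and its strand setting were not given in the sources used here. The authors deposited normalized counts per gene (signal scaled by a size factor per library, 1 column per mouse, replicates not pooled). In each library 100% of values were whole multiples of a single step (tolerance 0.01), so the reads were recovered; 3 reads were 1.28e-05% to 1.96e-05% of a library. The precision of low genes is limited by these reads, and intervals and floors cover counting error only.

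Groups came from the sample labels. Genes with a mean of at least 10 were tested with limma 3.58.1 (R 4.3.3) on log2(normalized count + 1), with all 3 groups in the model and Benjamini-Hochberg adjustment; fold changes are on that scale, which understates low genes. The test was checked on simulated counts, drawn independently for each gene with the same spread setting and no deviating mouse. That check does not cover data that hold such a mouse. Alternatives were pseudocounts of 0.5 and 5, no filter or a mean of 50, equal totals, quantile and TMM scaling, an intensity trend, sample weights, 2 groups only, edgeR 4.0.16 and DESeq2 1.42.0 on the recovered reads, and leaving out each mouse.

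The members and lists were chosen with earlier results of these data known. All members were named, then up to 4 passing genes of each list with the smallest adjusted p, and the 3 genes closest to each passing member. Exon lengths and positions came from GENCODE M21 and promoters from RefSeq. The length of a gene was that of all its annotated exons joined, such as 888 bases for Timp1, 3371 for Mmp2 and 5894 for Timp4. Exons that the muscle does not use would lower a value per kilobase. Orders, ratios and shares between genes therefore depend on these lengths. All mice carry the same batch label, so no split by batch was possible.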

Additional observations from a re-analysis of the deposited data

Results flagged for a closer look

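Mmp14 in semaglutide mouse 16 stood far from the other mice of its group, at a normalized count of 352 against 192 in the next highest. The gap was 0.804 of the group's range, above the 95% critical value of 0.71 for 5 samples. Of 16 groups of 5 mice examined, 1 exceeded its critical value, and chance exceeds it in about 1 group in 20. The same mouse had the highest summed macrophage and adipocyte markers, whose part in the value was not tested.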

How the results depend on the processing

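Of 447 values of single members recomputed under the alternatives, 424 kept their side of the threshold, 15 no longer passed, 8 newly passed and 0 of the called values changed sign. Some values that passed in neither fit did change sign. Among them was Timp3 in semaglutide + ketone ester against semaglutide, at -0.08 after scaling to equal totals. In semaglutide against vehicle, Mmp2 and Timp2 passed under every alternative, and the count of members that passed was 2 to 3, also when mice were left out; the third was Mmp9, with sample weights (limma adjusted p = 0.00883) and without semaglutide mouse 13. In semaglutide + ketone ester against semaglutide the count was 2. It was 1 without a filter (Timp2), with equal totals (Timp4) and with 2 groups only (Mmp2), 3 with sample weights and with DESeq2 (Timp4 added), and 0 to 3 when mice were left out. In semaglutide + ketone ester against vehicle it was 0, and 1 (Timp4) with sample weights or DESeq2. By the analysis of variance and fold 2 members were altered, and 2 to 4 when mice were left out, the 4 (Mmp2, Mmp9, Timp2 and Timp4) without semaglutide mouse 13. The cause of these shifts was not tested. Over all genes, calls for semaglutide against vehicle numbered 3084, and 2437 to 4847 under the alternatives; for semaglutide + ketone ester against semaglutide 2262, and 751 (2 groups only) to 4279 (sample weights); and for semaglutide + ketone ester against vehicle 29, and 4 (no filter) to 205 (sample weights). Leaving out a mouse gave 2065 to 4450, 861 to 3959 and 1 to 77. Equal totals moved the median of all genes by 0.17 and -0.24 in the first 2 comparisons and the share of higher calls from 47.3% to 77.8% and from 49.4% to 14.6%. Mmp3, Mmp9 and Timp1 rest on at most 24 reads per mouse. No paired analysis was possible because the labels give the groups no shared replicate numbers.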
